A study of Oncorhynchus mykiss with 20 samples.

Results

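The hemoglobin chain genes hba1 and hbb1 were followed in the intestine, taken whole, of fry of the rainbow trout, Oncorhynchus mykiss. The pair was chosen by gene symbol, as 2 genes of 61670 features, with their change between the ages already known. The reads that Salmon assigned to all transcripts of each symbol were summed per gene, and each gene turned out to have 1 transcript, of 469 bases for hba1 and 580 bases for hbb1. The fry were all female and belonged to a selected strain (ARS-KO, here Select) or a common commercial strain (Commercial), sampled at 20 or 65 days after hatching (dph, days post hatch). Strain and age make 4 groups of 5 libraries. All groups ate a commercial starter diet, which the younger fry had received for 10 days, and lived in flow-through spring water at 15 °C. The strains shared rearing as eggs and were moved to separate raceways after hatching, so strain and raceway cannot be told apart. Nothing in the labels says whether a library held 1 fish or several, nor that libraries came from separate tanks, so the p-values measure the spread between these libraries only.

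Hemoglobin carries oxygen in red blood cells and is built from alpha chains (such as that of hba1) and beta chains (such as that of hbb1), each holding a heme group with iron. Fish red blood cells keep a nucleus and messenger RNA, so poly(A) RNA of a whole organ includes globin RNA from the blood within it. In teleosts alpha and beta globin genes lie mixed together in clusters, and larval and adult genes of a cluster are used in turn as the fish develops. Rainbow trout red cells hold several hemoglobins that differ in how strongly acid lowers their oxygen binding.

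At 20 dph both chains were scarce. Levels are given as CPM, read counts brought to 1 common library total with the TMM method. In Commercial fry at 20 dph hba1 stood at 3.22, 1.04, 1.09, 5.17 and 6.95 CPM in replicates 1 to 5, a mean of 3.5 ± 2.58 CPM (SD, n = 5). In Select fry of that age it stood at 2.58, 0.752, 3.27, 6.83 and 0.738 CPM, a mean of 2.83 ± 2.5 CPM (SD, n = 5). The strains overlapped almost over their whole ranges, and libraries of 1 group differed far more from each other than the group means did. The highest hba1 library was 6.66 times the lowest in Commercial and 9.26 times the lowest in Select. These levels rest on 5.52 to 58.1 expected counts per library.

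At 65 dph hba1 was far higher in every library, although hba1 and hbb1 together made up only 0.00767% to 0.0149% of reads. The Commercial libraries held 72.3, 82.2, 45.2, 90.5 and 58.7 CPM, a mean of 69.8 ± 18.2 CPM (SD, n = 5). The Select libraries held 69.5, 76.4, 57.6, 91.3 and 88.3 CPM, a mean of 76.6 ± 13.8 CPM (SD, n = 5). The lowest library of the older fry, Commercial replicate 3, lay far above the highest of the younger fry, and the spread within a group was narrower in proportion, at 2.0 times in Commercial and 1.59 times in Select. Expected counts ran from 424.4 to 846.8 per library at this age.

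The beta chain gene hbb1 was also far higher in the older groups, by a smaller factor than hba1. At 20 dph it stood at 4.3, 2.66, 1.2, 6.0 and 7.91 CPM in Commercial (mean 4.41 ± 2.65, SD, n = 5). In Select it stood at 2.58, 4.26, 4.14, 7.44 and 1.35 CPM (mean 3.95 ± 2.29, SD, n = 5). The strains overlapped again, and Commercial replicate 5 and Select replicate 4 were highest for both chains. At 65 dph the Commercial libraries held 26.1, 34.2, 26.8, 34 and 26.6 CPM (mean 29.6 ± 4.17, SD, n = 5). The Select libraries held 28.6, 26.8, 19.8, 29.1 and 38.9 CPM (mean 28.6 ± 6.83, SD, n = 5). No library of the older fry came down to the level of any younger one. The counts behind hbb1 ran from 10.5 to 65.7 at 20 dph and from 234.3 to 334.6 at 65 dph. In the order of group means the strains of 1 age were neighbours that did not differ beyond their spread: Select, Commercial, then both strains at 20 dph for hba1, and Commercial, Select, then both strains at 20 dph for hbb1.

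**Figure D1:**
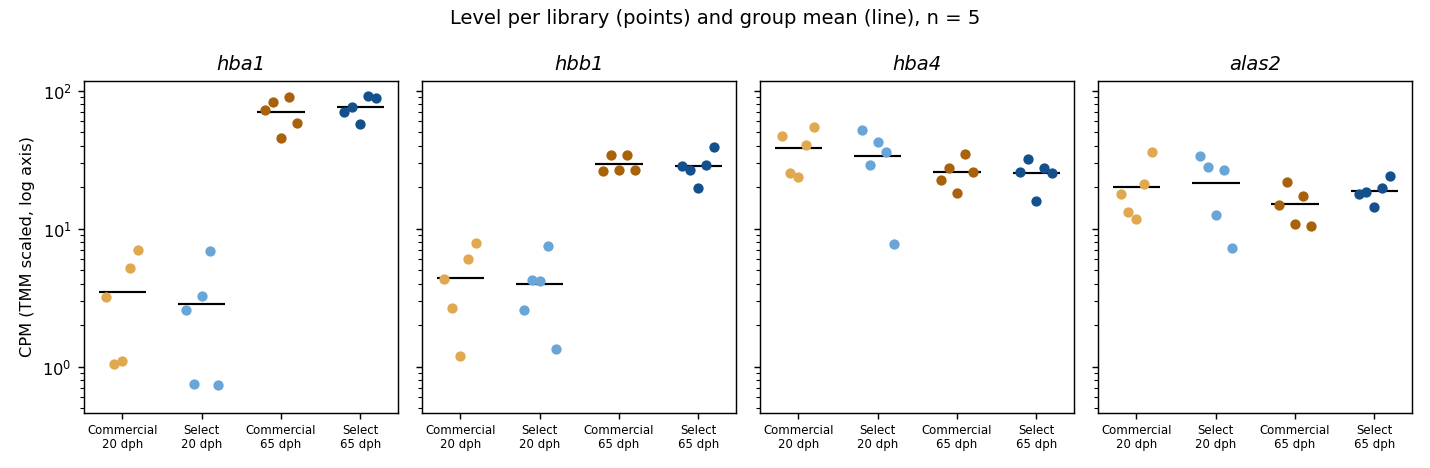
Level of hba1, hbb1, hba4 and alas2 in each of the 20 libraries, in TMM-scaled CPM on a log axis; points are libraries, ordered by replicate number within a group, and lines are group means (n = 5). The 10 libraries at 65 dph lie above the 10 at 20 dph for hba1 (45.2 to 91.3 against 0.738 to 6.95 CPM) and hbb1 (19.8 to 38.9 against 1.2 to 7.91 CPM), while hba4 and alas2 overlap between the ages.

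The change between the ages was the reason for choosing these genes, so it is described without a test. On the log2 CPM scale hba1 was higher at 65 dph by 4.32 (approximate standard error 0.54, 20.0-fold) in Commercial and by 4.74 (0.55, 26.8-fold) in Select. For hbb1 the difference was 2.74 (0.40, 6.7-fold) in Commercial and 2.85 (0.41, 7.19-fold) in Select. Among the 32166 features fitted, hba1 had the 238th highest age difference in Commercial and the 189th highest in Select, and hbb1 the 629th and 552nd. Age groups without overlap were common here, with the older fry higher for 10.3% of features in Commercial and 11.6% in Select. Nothing about the pair is read from that share.

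Neither chain was found to differ between the strains. For hba1 the Select minus Commercial difference was -0.29 in log2 CPM (approximate standard error 0.54, adjusted p = 0.933) at 20 dph and 0.13 (0.45, adjusted p = 0.992) at 65 dph. For hbb1 it was -0.15 (0.41, adjusted p = 0.962) and -0.05 (0.37, adjusted p = 0.996). All 4 values come from edgeR's quasi-likelihood test with Benjamini-Hochberg adjustment over all features, and each is smaller than its standard error. The test called 0.159% of features between the strains at 20 dph and 0.0% at 65 dph. At 20 dph these were 51 features, against 442 in DESeq2, 29 in limma-voom and 5 to 71 when 1 library was left out. At 65 dph 2000 features had an unadjusted p under 0.05, DESeq2 called 121 and limma-voom 0. Without Commercial replicate 2 at 65 dph edgeR called 125 features and without Select replicate 5 it called 7. The standard errors leave room for differences of well over the measured size in either direction at both ages.

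The age difference was also not found to depend on strain. The age difference in Select exceeded that in Commercial by 0.42 for hba1 (approximate standard error 0.70, edgeR adjusted p = 0.967) and by 0.10 for hbb1 (0.55, edgeR adjusted p = 0.994), both in log2 CPM. The edgeR test called 0.0% of features for this difference of differences, with 1781 at an unadjusted p under 0.05, 66 called by DESeq2 and 0 by limma-voom. For hbb1 the sign of this near-zero value turned with the method, to -0.01 in limma-voom.

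The balance of the chains differed between the ages as well. Levels of different genes are compared in TPM, the deposited abundance scaled for transcript length, because CPM is not. Within a library hba1 stood at 0.233 to 1.42 times the TPM of hbb1 at 20 dph and at 2.4 to 4.45 times at 65 dph. The group means of this ratio were 1.09 ± 0.302 (Commercial, SD, n = 5) and 0.962 ± 0.481 (Select, SD, n = 5) at 20 dph. At 65 dph they were 3.35 ± 0.625 (Commercial, SD, n = 5) and 3.88 ± 0.532 (Select, SD, n = 5). The younger libraries thus held the chains at near equal TPM, except Select replicate 2 at 0.233 and Commercial replicate 2 at 0.576, and every older library held more of the alpha chain of this pair. In TPM, hba1 averaged 15.9 ± 11.6 (Commercial, SD, n = 5) and 14 ± 13.6 (Select, SD, n = 5) at 20 dph, and 429.4 ± 131.7 (SD, n = 5) and 489.4 ± 96.6 (SD, n = 5) at 65 dph. For hbb1 the TPM means were 14.1 ± 8.28 (SD, n = 5) and 13.4 ± 8.86 (SD, n = 5), then 126.9 ± 25.9 (SD, n = 5) and 128.4 ± 32.1 (SD, n = 5).

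The strains were not found to differ in this ratio. The mean log2 ratio was lower in Select by a difference of -0.36 at 20 dph (exact permutation test, 2-sided, p = 0.651, n = 5 against 5). It differed by 0.22 in the other direction at 65 dph (exact permutation test, 2-sided, p = 0.198, n = 5 against 5). With 252 arrangements the smallest p this test can give is 0.00794.

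**Figure D2:**
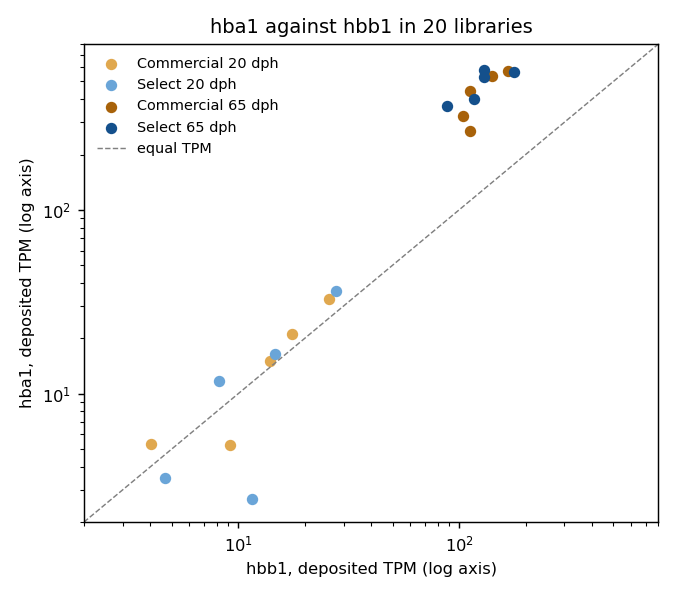
Deposited TPM of hba1 against that of hbb1 in 20 libraries on log axes; each point is a library, coloured by group, and the broken line marks equal TPM. Most 20 dph libraries lie near the line, at ratios of up to 1.42. Select replicate 2 (0.233) and Commercial replicate 2 (0.576) of that age lie farther below it. The 65 dph libraries lie above the line at ratios of 2.4 to 4.45.

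Libraries of 1 age that held more hba1 tended to hold more hbb1. At 20 dph, over 10 libraries, Pearson's r between their log2 CPM was 0.805 (permutation p = 0.00602, adjusted p = 0.0197 over 6 relations). Spearman's rho was 0.782 (permutation p = 0.0107, adjusted p = 0.0532). Without Select replicates 2 and 5, the libraries farthest from the median of hba1, r was 0.926. At 65 dph r was 0.65 (permutation p = 0.0419, adjusted p = 0.0459) and rho 0.685 (permutation p = 0.0355, adjusted p = 0.0532, n = 10). Without replicate 3 of each strain r was 0.673, but its permutation p over the libraries left was 0.0668. The p at 65 dph also passed 0.05 when 1 library was left out, up to 0.0865, for Commercial replicates 2, 4 and 5 and Select replicates 1, 3 and 5. With each strain's mean taken out, r was 0.807 at 20 dph and 0.711 at 65 dph, so the strain means do not carry the relation. The rank correlation misses 0.05 after adjustment at both ages.

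Another alpha chain gene, hba4, gives a measure of globin RNA that did not serve to choose the pair. At 20 dph hba4 stood at 47.3, 25.3, 23.6, 40.7 and 54.4 CPM in Commercial and at 51.9, 29.1, 42.4, 36 and 7.74 CPM in Select. At 65 dph it stood at 22.4, 27.5, 18.1, 34.8 and 25.7 CPM in Commercial and at 25.7, 31.8, 15.9, 27.4 and 25.1 CPM in Select. The ages overlapped in both strains, and Select replicate 5 at 20 dph was the lowest library of all, as it was for hba1. The age difference of hba4 was -0.57 in log2 CPM in Commercial (approximate standard error 0.35, edgeR adjusted p = 0.245) and -0.41 in Select (0.35, edgeR adjusted p = 0.406). Its strain differences were -0.20 at 20 dph (edgeR adjusted p = 0.93) and -0.03 at 65 dph (edgeR adjusted p = 0.997).

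Set against hba4 in TPM, hba1 went from the minor to the major of these alpha chains. It stood at 0.0385 to 0.307 times the TPM of hba4 in the 10 younger libraries and at 3.67 to 5.97 times in the 10 older ones. The beta chain hbb1 stood at 0.0557 to 0.236 times the TPM of hba4 at 20 dph and at 0.969 to 1.77 times at 65 dph. These ratios are formed within a library, so the scaling between libraries does not enter them. Within an age hba4 moved with the pair: r with hba1 was 0.717 at 20 dph (permutation p = 0.00657, adjusted p = 0.0197, n = 10) and 0.748 at 65 dph (permutation p = 0.013, adjusted p = 0.026, n = 10). The rank correlations were 0.709 (permutation p = 0.0277, adjusted p = 0.0532) and 0.697 (permutation p = 0.0307, adjusted p = 0.0532). Without the 2 libraries farthest from the median of hba1, r stayed at 0.717 at 20 dph and was 0.419 at 65 dph, where it rests on replicate 3 of each strain. For hbb1 with hba4, r was 0.689 at 20 dph (permutation p = 0.0192, adjusted p = 0.0288) and 0.642 at 65 dph (permutation p = 0.0459, adjusted p = 0.0459), with n = 10 at each age. Its rho was 0.588 (permutation p = 0.0799, adjusted p = 0.0959) and 0.515 (permutation p = 0.135, adjusted p = 0.135). Without Commercial replicate 3 and Select replicate 5 at 20 dph, r between hbb1 and hba4 was 0.283, so it rests on those libraries, while at 65 dph it was 0.554 without Select replicates 3 and 5.

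Reads of near-identical globin copies could be divided wrongly between them. The expected counts of hba1, hbb1 and hba4 were not whole numbers in 20 of 20 libraries each, which shows that Salmon shared some reads between these transcripts and others. Which other transcripts these were was not tested, so values of single chains and sums over them both carry this uncertainty.

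In the RefSeq gene table hbb1 and hba1 lie next to each other, and hba4 is the fourth gene beyond hba1. Of the 10 genes on either side of the pair, 15 have transcripts in the files and 5 are not analysed here. The table gives the LOC genes among them no product or role, and none is given here. They were looked at after the pair was known to change, so their values are described without tests.

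The genes on the hbb1 side were higher in the younger fry. LOC110538450, next to hbb1, averaged 105.5 ± 56.4 CPM (Commercial, SD, n = 5) and 120.3 ± 66.8 CPM (Select, SD, n = 5) at 20 dph. It averaged 29.3 ± 5.58 CPM (SD, n = 5) and 27.7 ± 5.92 CPM (SD, n = 5) at 65 dph. Its age difference was -1.85 in log2 CPM in Commercial and -2.12 in Select. The 3 genes beyond it had age differences of -1.92 and -2.28 (LOC110538444), -2.36 and -2.47 (LOC110538451) and -2.48 and -2.47 (LOC110538446), Commercial first. The other 5 analysed genes on that side, mpg among them, averaged under 1 CPM in every group.

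On the hba1 side, genes higher in the older fry alternated with genes lower there. LOC118936252, next to hba1, averaged 12.1 ± 6.98 CPM (Commercial, SD, n = 5) and 13 ± 8.38 CPM (Select, SD, n = 5) at 20 dph, then 94.2 ± 14.4 CPM (SD, n = 5) and 94.8 ± 21.0 CPM (SD, n = 5) at 65 dph. LOC110538448, the third gene, averaged 8.53 ± 5.47 CPM (SD, n = 5) and 13.2 ± 9.84 CPM (SD, n = 5), then 72.6 ± 12.7 CPM (SD, n = 5) and 83.5 ± 13.7 CPM (SD, n = 5). Their age differences in log2 CPM were 2.96 and 2.86 for LOC118936252 and 3.09 and 2.66 for LOC110538448, close to those of hbb1. LOC110538445, which lies between them, differed by -1.12 and -1.25, and farther out LOC110538443 differed by -0.84 and -0.38 and LOC110538447 by -1.01 and -0.80.

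**Figure D3:**
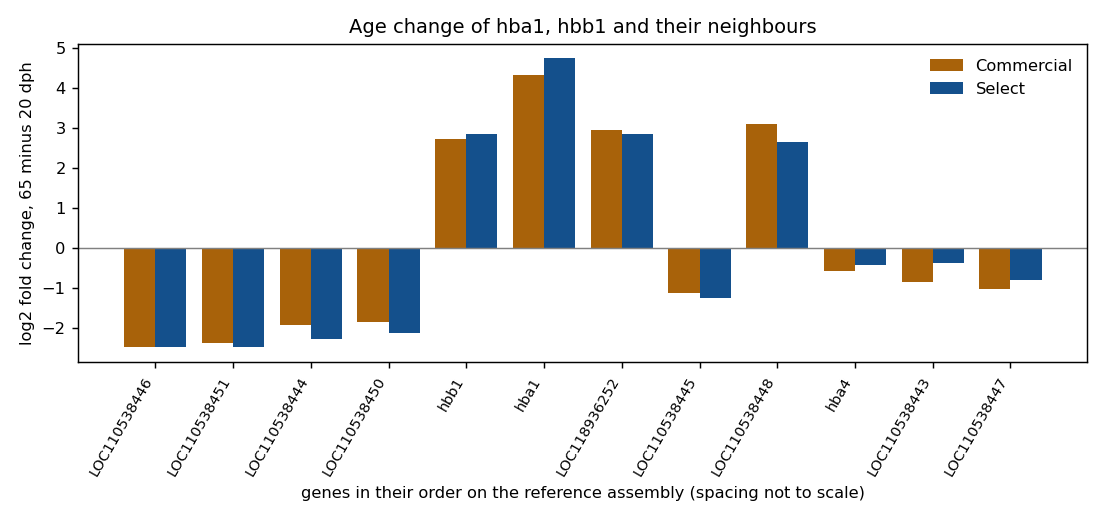
Age difference (65 minus 20 dph) in log2 CPM for hbb1, hba1 and the 10 neighbours that passed the filter on low counts, in their order in the RefSeq gene table; spacing is not to scale and bars are fitted values for Commercial and Select. The 4 genes left of hbb1 lie between -2.48 and -1.85, hbb1, hba1, LOC118936252 and LOC110538448 lie above 2.6, and the rest lie between -1.25 and -0.38.

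Added up, the TPM of the pair and the 15 neighbours with transcripts in the files overlapped between the ages. The sum ran from 885.8 to 4794.0 TPM over the 10 younger libraries and from 2142.2 to 3783.2 TPM over the 10 older ones. The pair made up 0.485% to 1.52% of that sum at 20 dph and 17.0% to 21.8% at 65 dph. The most abundant gene of the stretch at every group mean was LOC110538443, which averaged 969.2 TPM in Commercial and 651.7 TPM in Select at 20 dph. Select replicate 5 at 20 dph had the lowest sum of all libraries, and Select replicate 4 of that age the highest. TPM is a share of a library's total, so part of any difference in it can come from the rest of the library. Between the ages the median feature was higher by 0.42 in Commercial and 0.5 in Select on the log2 TPM scale, against 0.05 and 0.07 with TMM-scaled counts. Hence CPM is used between ages and TPM for ratios within a library, and the sum is not given in CPM. The most abundant gene, LOC110538443, averaged 361.6 CPM at 20 dph and 201.7 at 65 dph in Commercial, and 237.1 and 182.1 in Select. The other tested neighbours were also lower at 65 dph, except LOC118936252 and LOC110538448, which were higher, as were hba1 and hbb1. The overlap in TPM therefore does not show that the total stayed level.

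**Figure D4:**
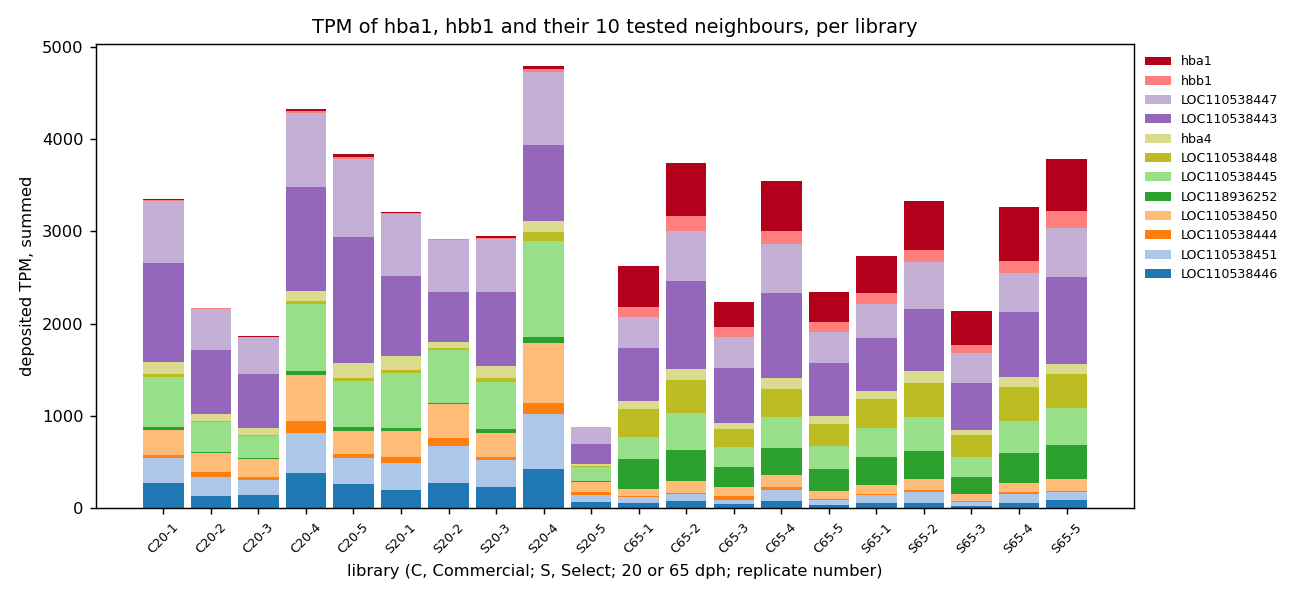
Deposited TPM of hba1, hbb1 and 10 neighbouring genes stacked for each of the 20 libraries (C, Commercial; S, Select). The total of the pair and all 15 neighbours with transcripts in the files overlaps between the ages. It runs from 885.8 to 4794.0 TPM at 20 dph and from 2142.2 to 3783.2 TPM at 65 dph. The 2 red segments at the top (hba1 and hbb1) take up 0.485% to 1.52% and then 17.0% to 21.8% of it. Neighbours that failed the filter on low counts are in this total but are not drawn.

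Of these neighbours, 2 were the features that varied most like hba1 within groups. After the group means were taken out, log2 CPM deviations over the 20 libraries correlated with those of hba1 at r = 0.94 for LOC118936252 and r = 0.94 for LOC110538448, ranks 1 and 2 of 24464 features. The expected counts of hba1 were not whole numbers in 20 of 20 libraries. Whether reads shared with LOC118936252 or LOC110538448 had a part in these values of r was not tested. The gene hbb1 had r = 0.80 (rank 8), and hba4 had r = 0.71 (rank 57). The other tested neighbours ranked below hbb1, and of them only LOC110538443 (r = 0.75, rank 26) ranked above hba4. For the rest r was 0.70 for LOC110538445 and LOC110538447, 0.66 for LOC110538446, 0.61 for LOC110538451, 0.58 for LOC110538450 and 0.25 for LOC110538444 (rank 5028). Outside the globins the 10 closest genes with a symbol were si:ch211-232b12.5 (r = 0.79), hbs1l, pkd1l2a, nlrc3, crj1a, hsh2d, zswim8, slc22a21, erb2 and kidins220b (r = 0.68). They were picked from 4668 genes with a symbol as the highest values of r, which are given as a description of these libraries. Their levels between the ages went several ways: slc22a21 averaged 13.4 CPM at 20 dph and 4.22 CPM at 65 dph in Commercial, while erb2 averaged 38.4 and 89.6 CPM, and crj1a 2.71 and 2.82 CPM.

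Genes known from red blood cells give a second view of blood in the samples. In a bulk sample fewer cells of a type and less RNA per cell cannot be told apart. Of 30 erythroid symbols listed, 9 were found in the files and 7 passed the filter. By edgeR 2 of the 7 fell with age in each strain and the other 5 were not called, against 15.6% of all features called lower in Commercial and 17.9% in Select. In Commercial DESeq2 called 4 of the 7 in either direction, beside 10642 of all 32166 features fitted. It added lmo2 and tspo, which were higher at 65 dph (0.62 and 0.39 in log2 CPM, edgeR adjusted p = 0.0513 and 0.0579). The median age difference over the 7 was -0.41 in log2 CPM in Commercial and -0.00 in Select, beside 0.05 and 0.07 over all features. The summed level of the 9 genes ran from 244.5 to 272.1 CPM in Commercial and from 251.2 to 369.3 CPM in Select at 20 dph, and from 223.3 to 280.2 CPM and from 211.1 to 251.3 CPM at 65 dph. As a share of reads it ran in Commercial from 0.0213% to 0.0252% at 20 dph and from 0.0263% to 0.0299% at 65 dph, without overlap. In Select that share ran from 0.0239% to 0.0301% and from 0.0247% to 0.0278%. Whether the ages overlap in this sum in Commercial thus depends on the scaling. Most of that sum came from tspo and tfr1a, which many tissues express.

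The genes that fell were cahz and tfr1a. cahz, a carbonic anhydrase of red blood cells in zebrafish, fell by 1.26 in log2 CPM in Commercial (edgeR adjusted p = 0.00828) and by 1.34 in Select (edgeR adjusted p = 0.00494). Its group means were 29.5 ± 10 CPM (SD, n = 5) and 32.2 ± 15.1 CPM (SD, n = 5) at 20 dph and 12.3 ± 3.67 CPM (SD, n = 5) and 12.8 ± 2.64 CPM (SD, n = 5) at 65 dph, Commercial first. tfr1a, a transferrin receptor that takes up iron, fell by 0.67 in Commercial (edgeR adjusted p = 0.0313) and by 1.02 in Select (edgeR adjusted p = 0.002). The Commercial call of tfr1a was lost in 6 of 20 fits that left out 1 library, namely Commercial replicates 1, 2 and 3 at 20 dph and 1, 2 and 5 at 65 dph, with an edgeR adjusted p of up to 0.0987.

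alas2, which encodes the red cell form of the first enzyme of heme synthesis, was not called in either strain. It stood at 17.9, 13.3, 11.8, 20.9 and 35.8 CPM in Commercial and at 33.4, 27.9, 12.5, 26.6 and 7.25 CPM in Select at 20 dph. At 65 dph it stood at 14.9, 21.9, 10.8, 17.1 and 10.5 CPM in Commercial and at 17.7, 18.3, 14.4, 19.6 and 24.2 CPM in Select. The ages overlapped, with log2 differences of -0.41 (approximate standard error 0.36, edgeR adjusted p = 0.437) and -0.19 (0.36, edgeR adjusted p = 0.722). Of the other listed genes, slc4a1b, a band 3 type anion exchanger, had 2 counts over all 20 libraries and the transcription factor gene nfe2 had 83, and both were left out of the test. At these few counts nfe2 ran from 0.0 to 0.376 CPM in Select at 20 dph and from 0.82 to 1.21 CPM at 65 dph, without overlap. In Commercial it ran from 0.0 to 0.232 and 0.114 to 0.77 CPM, with overlap. Of all features tested, 11.6% were higher at 65 dph without overlap in Select, so nothing is read from that of nfe2. lmo2, a regulator of early blood formation, differed by 0.62 (edgeR adjusted p = 0.0513) in Commercial and 0.35 (edgeR adjusted p = 0.272) in Select, and epor, the erythropoietin receptor gene, by 0.88 (edgeR adjusted p = 0.334) and 0.61 (edgeR adjusted p = 0.507). rhd, of the Rh protein family, differed by -0.50 (edgeR adjusted p = 0.69) and 0.81 (edgeR adjusted p = 0.483). The erythroid genes thus did not share 1 direction between the ages, and what part the amount of blood in the samples had in the levels of hba1 and hbb1 was not tested.

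Of the genes listed for heme synthesis, 4 fell with age in Commercial and 5 in Select, and 2 of these, tmem14ca and pgrmc1, do not encode enzymes of the pathway. Of 18 symbols listed, 9 were found and tested, where 15.6% and 17.9% of all features were called lower, with medians of -0.41 and -0.51 in log2 CPM over the 9. cpox, the coproporphyrinogen oxidase gene, fell by 0.91 in Commercial (edgeR adjusted p = 0.000258) and by 0.78 in Select (edgeR adjusted p = 0.000873). alad, which encodes the enzyme that forms porphobilinogen, fell by 0.68 in both strains (edgeR adjusted p = 0.00198 and 0.00165). tmem14ca, related to a mammalian mitochondrial porphyrin carrier, fell by 0.55 and 0.72 (edgeR adjusted p = 0.00486 and 0.000552), and pgrmc1, a heme-binding membrane protein gene, by 0.41 and 0.49 (edgeR adjusted p = 0.0137 and 0.00377). ppox, for protoporphyrinogen oxidase, fell by 0.59 in Select (edgeR adjusted p = 0.00921) and differed by -0.41 in Commercial (edgeR adjusted p = 0.0679). These enzymes also serve cells other than red blood cells, and the mitochondrial iron carrier gene slc25a37 differed by 0.67 and 0.56 without being called (edgeR adjusted p = 0.496 and 0.551).

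Genes that break down heme or move iron went both ways. Of 26 symbols listed, 15 were found and tested. In Commercial 2 rose and 4 fell, and in Select 3 rose and 7 fell, where 14.5% of all features were called higher in Commercial and 16.4% in Select, and 15.6% and 17.9% lower. The medians over the 15 were -0.52 and -0.63 in log2 CPM. hmox1a, which encodes the heme-degrading enzyme heme oxygenase, rose by 2.78 in Commercial (edgeR adjusted p = 0.000152) and by 2.38 in Select (edgeR adjusted p = 0.000478). Its means went from 3.35 ± 1.24 to 23.0 ± 8.47 CPM (SD, n = 5) in Commercial and from 3.92 ± 2.14 to 20.7 ± 12.4 CPM (SD, n = 5) in Select. iscub, for an iron-sulfur cluster scaffold, rose by 3.47 (edgeR adjusted p = 0.000205) and 2.52 (edgeR adjusted p = 0.00169) from means under 1 CPM at 20 dph, while its paralog iscua differed by 0.29 and 0.11 (edgeR adjusted p = 0.0689 and 0.516). slc48a1a, a heme transporter gene, rose by 0.48 in Select (edgeR adjusted p = 0.0254), a call lost in 4 of 20 fits that left out 1 library (Select replicates 1, 3 and 5 at 20 dph and 2 at 65 dph, edgeR adjusted p up to 0.0707).

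Among the iron genes that fell were slc11a2 and flvcr1. slc11a2, the apical iron transporter of the gut in mammals, fell by 1.16 in Commercial (edgeR adjusted p = 0.000108) and by 1.48 in Select (edgeR adjusted p = 1.13e-05). flvcr1, named in mammals as a heme exporter, fell by 2.43 (edgeR adjusted p = 0.00267) and 2.75 (edgeR adjusted p = 0.00109) at levels of 3.97 and 3.42 CPM at 20 dph. aco1, the cytosolic aconitase that binds iron-responsive RNA elements, fell by 0.99 (edgeR adjusted p = 0.000123) and 1.16 (edgeR adjusted p = 2.68e-05). In Select the plasma protein genes tfa (transferrin) and hpxb (hemopexin) were called with differences of -7.96 (edgeR adjusted p = 0.00583) and -6.92 (edgeR adjusted p = 0.0181), and both calls were lost without Select replicate 1 at 20 dph. Without it tfa differed by -0.91 (edgeR adjusted p = 0.487) and hpxb by 1.74 (edgeR adjusted p = 0.333). In that library liver markers took up 1.75% of reads, against 0.00205% to 0.0298% in the other libraries of that age, and skeletal muscle markers 0.108% against 0.00236% to 0.00404%. Its hba1 and hbb1 levels, 2.58 CPM each, lay inside the range of its group. steap3, a ferrireductase gene, fell by 0.66 in Select (edgeR adjusted p = 0.0244) and lost its call in 4 of 20 fits that left out 1 library (Select replicates 1 and 4 at 20 dph and 2 and 3 at 65 dph, edgeR adjusted p up to 0.0722).

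Other globin genes were looked for by symbol only, so a globin gene with only a LOC name could not be found this way. Of 19 symbols listed, 7 were found and 3 were tested. None of hba4, cygb and cygb2 was called by edgeR in any comparison. Between the ages edgeR called 14.5% of all features higher and 15.6% lower in Commercial, and 16.4% and 17.9% in Select. Between the strains it called 0.159% at 20 dph and 0.0% at 65 dph, so little can be read from 0 of 3 genes. cygb2 alone had an unadjusted p under 0.05, in Commercial between the ages (difference -0.67, edgeR adjusted p = 0.085). There limma-voom called 1 of the 3 and DESeq2 0, beside 9243 and 10642 of all 32166 features fitted. The muscle globin mb had 35 counts over all libraries, the neuroglobins ngb and ngb1 had 1 and 46, and xgb had 49, too few to test.

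**Figure D5:**
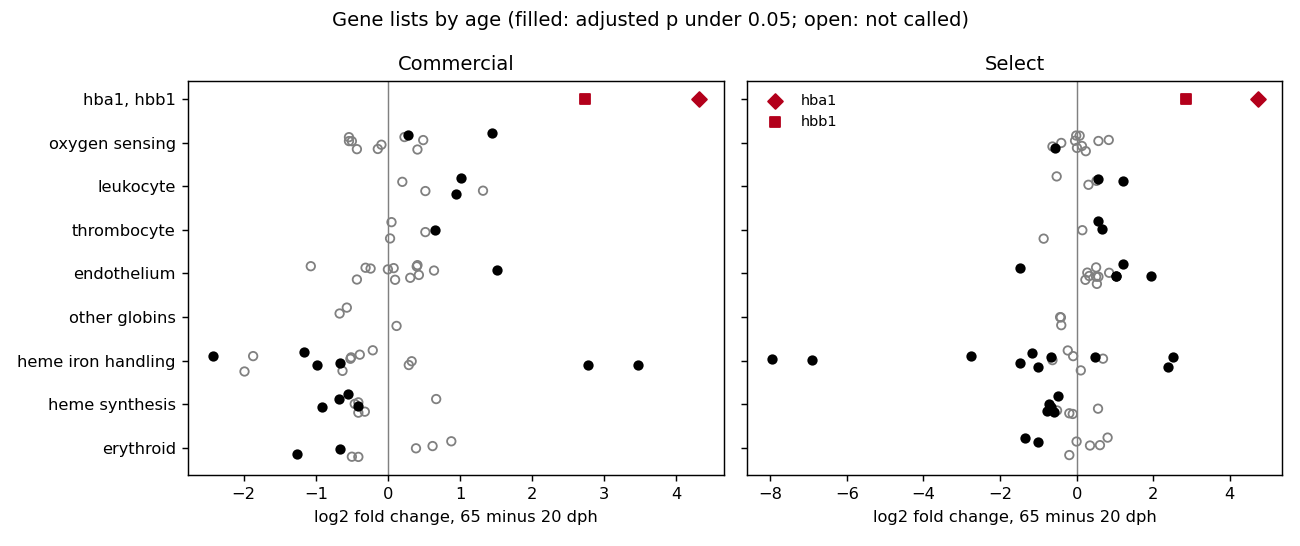
Age difference (65 minus 20 dph) in log2 CPM for the tested genes of 8 lists and for hba1 and hbb1; filled points are list members with an edgeR adjusted p under 0.05 and open points are not called, and the red points carry no test. The x axes differ between the panels, because hpxb and tfa lie at -6.92 and -7.96 in Select. hba1 lies to the right of every list member in both panels.

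Markers of the vessels and of other blood cells were measured beside the pair. Of 13 tested endothelial genes 1 rose in Commercial, where 14.5% of all features were called higher. In Select 4 rose and 1 fell, where 16.4% were called higher and 17.9% lower. The medians were 0.10 and 0.53 in log2 CPM. mmrn2a, which encodes an endothelial matrix protein, rose by 1.51 (edgeR adjusted p = 0.00398) in Commercial and by 1.94 (edgeR adjusted p = 0.000527) in Select. plvapa and plvapb, genes of a vesicle protein of fenestrated endothelium, rose in Select by 1.2 (edgeR adjusted p = 0.00117) and 1.03 (edgeR adjusted p = 0.00741) and differed in Commercial by 0.40 and 0.43 (edgeR adjusted p = 0.242 and 0.264). ecscr rose by 1.04 (edgeR adjusted p = 0.0224) and lyve1b, a lymphatic marker, fell by 1.47 (edgeR adjusted p = 0.027), both in Select. The ecscr call was lost without Select replicate 5 at 20 dph or 2 at 65 dph (edgeR adjusted p up to 0.071) and in limma-voom (adjusted p = 0.145). The lyve1b call was lost without Select replicate 1 or 4 at 20 dph or 1, 3 or 4 at 65 dph (edgeR adjusted p up to 0.119). The receptor gene kdr and the junction gene pecam1 were not called (differences of -0.43 and 0.00 in Commercial, 0.23 and 0.33 in Select). The summed level of the 15 endothelial genes found ran from 106.0 to 183.5 CPM in Commercial and 81.4 to 132.4 CPM in Select at 20 dph, and from 120.0 to 267.6 and 133.4 to 289.6 CPM at 65 dph.

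Of 4 tested thrombocyte genes, vamp8, a vesicle fusion gene that is not restricted to thrombocytes, rose in both strains by 0.65 (edgeR adjusted p = 0.000114) and 0.57 (edgeR adjusted p = 0.000335). plek rose in Select by 0.66 (edgeR adjusted p = 0.0361), a call lost without Select replicate 1, 2, 3 or 5 at 20 dph or 2 or 3 at 65 dph (edgeR adjusted p up to 0.111). gp9 and itga2b, the more specific thrombocyte genes, were not called (0.03 and 0.05 in Commercial, 0.15 and -0.86 in Select). The list's medians were 0.28 and 0.36. Of 5 tested leukocyte genes 2 rose in each strain, with medians of 0.94 and 0.52. With lists this short, these counts are hard to set against the 14.5% (Commercial) and 16.4% (Select) of all features called higher. The macrophage gene mpeg1.1 rose by 1.01 (edgeR adjusted p = 0.000172) and 0.55 (edgeR adjusted p = 0.0139), cd53 by 0.94 in Commercial (edgeR adjusted p = 0.00204), and ncf1, of the phagocyte oxidase, by 1.22 in Select (edgeR adjusted p = 0.00635). lyz2, which held the most counts of the leukocyte list, differed by 1.32 in Commercial and -0.52 in Select (edgeR adjusted p = 0.0652 and 0.469). csf3r was not called either (0.20 and 0.52). The summed level of the leukocyte genes ran from 59.5 to 186.3 CPM at 20 dph and from 94.6 to 279.8 CPM at 65 dph. That of the thrombocyte genes ran from 34.8 to 49.4 CPM and from 57.0 to 68.7 CPM. The ages did not overlap in that sum over both strains. Within a strain, 10.3% of single features in Commercial and 11.6% in Select were higher at 65 dph without overlap. No such share was computed over both strains together. Most counts of the thrombocyte list were of vamp8, so its sum says little about thrombocytes. The part of leukocytes and thrombocytes in the levels of hba1 and hbb1 was not tested.

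Of 11 tested genes of the response to low oxygen, edgeR called 2 higher in Commercial, where 14.5% of all features went that way, and 1 lower in Select, where 17.9% were called lower. In Commercial DESeq2 called 4 and limma-voom 5 of them in either direction, beside 10642 and 9243 of all 32166 features fitted. The medians were -0.09 and 0.01 in log2 CPM. pfkfb3, a regulator of glycolysis, rose by 1.44 in Commercial (edgeR adjusted p = 0.00914) and differed by 0.84 in Select (edgeR adjusted p = 0.102). vhl, whose protein marks the hypoxia factor for degradation, rose by 0.28 in Commercial (edgeR adjusted p = 0.0253), and hif1a, the gene of that factor, fell by 0.56 in Select (edgeR adjusted p = 0.043). The vhl call was lost without Commercial replicate 1 or 3 at 20 dph or 3 or 5 at 65 dph (edgeR adjusted p up to 0.0704). The hif1a call was lost in 9 of 20 such fits (edgeR adjusted p up to 0.111), which left out Select replicate 1, 3, 4 or 5 at 20 dph, Select replicate 1, 3 or 5 at 65 dph, Commercial replicate 3 at 20 dph or Commercial replicate 5 at 65 dph. epoa, the erythropoietin gene, had 17 counts over all libraries and was left out of the test.

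Markers of neighbouring organs were also followed. The exocrine pancreas gene cpa5, the single list member found, ran from 18.1 to 926.4 CPM in Commercial at 20 dph and from 7.38 to 47.0 CPM at 65 dph, and was called lower with age in both strains (differences of -3.88 and -3.59). Of 7 tested liver genes edgeR called 1 lower in Commercial and 6 in Select, against 15.6% and 17.9% of all features, and of 3 tested skeletal muscle genes it called 0 and 2. Unadjusted p was under 0.05 for 1 muscle gene in Commercial, and DESeq2 and limma-voom called 0 muscle genes in either strain. Of the liver genes DESeq2 called 2 in Commercial and 3 in Select, and limma-voom 0 and 1. Of all 32166 features fitted, DESeq2 called 10642 in Commercial and 11831 in Select, and limma-voom 9243 and 10326, in either direction. Without Select replicate 1 at 20 dph, edgeR called 3 liver genes lower in each strain, and 2 muscle genes in Commercial and 0 in Select.

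Between the strains no list gene was called, where few features were called at all. Over the 73 distinct genes tested in all 11 lists, edgeR, DESeq2 and limma-voom each called 0 between the strains at either age and 0 for the difference between the age effects. Over all 32166 features edgeR called 0.159% at 20 dph, 0.0% at 65 dph and 0.0% for the difference of differences. Nothing particular to the lists is therefore read from 0 of 73. At an unadjusted edgeR p under 0.05 there were 10 list genes at 20 dph, 4 at 65 dph and 5 for the difference of differences. Over all 32166 features there were 3316, 2000 and 1781. None of those list genes was an erythroid, heme synthesis or other globin gene.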

How the data were processed

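Poly(A) RNA of whole intestines was sequenced from stranded libraries as paired reads, per the labels' protocols. The submitters' processing notes name Salmon 1.2.1, which divides reads that match several transcripts between them. Which transcript set, build or read filter they used is not stated in these sources. Each deposited table gives, per the file headers, for 78931 transcripts, an expected count (estimated reads, not normalised), a TPM (scaled for length and depth by the authors) and an effective length. Library totals lay between 7314588 and 13682738 expected counts, so genes of a few counts carry large counting error. No 2 libraries were identical.

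Transcripts were joined to genes through a RefSeq gene table (USDA_OmykA_1.1), used for gene names and neighbours only. With the accession version 1083 matched, and without it 42376, which was the match kept. The 36555 unmatched transcripts stayed single features, giving 61670 features. Per gene, expected counts were added up and then rounded. edgeR 4.0.16 in R 4.3.3 (TMM, filterByExpr by group, robust quasi-likelihood fit, 4 group means, 20 libraries) tested 32166 features, with Benjamini-Hochberg adjustment and calls at an adjusted p under 0.05. The approximate standard error is the absolute log2 fold change divided by the root of the F statistic. CPM are TMM-scaled; CPM deviations used a prior count of 2. TPM were summed per gene. DESeq2 1.42.0 and limma 3.58.1 (voom, and log2 of TPM + 0.1) were alternatives, with other filters, scalings and left-out libraries. The fit was tested on simulated data with 200 features changed 4-fold in Select at 20 dph. Of these features 161 were recovered, and 4 other features were called. The simulated means were pooled over all 20 libraries, so they held no age difference. The changed features were drawn only from those above a floor of mean log2 CPM. The share recovered therefore does not measure power in the real data or for genes of few counts.

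The members, the 11 gene lists and the tests were chosen with earlier results of these data known. A listed symbol matched itself or itself with a paralog suffix, a digit only after a symbol that ends in a letter. Named genes are the pair, up to 4 called members per list, age contrast and direction, the 10 genes with a symbol most like hba1, list members at low counts, and, outside that rule and chosen after their values were seen, the neighbours of the pair, list members given as not called, and the liver, pancreas and muscle lists. A rule that would have added genes by protein identity was not applied, because it needs protein sequences, which were not used here. Correlations used 100000 permutations.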

Additional observations from a re-analysis of the deposited data

Results flagged for a closer look

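In 64 groups of 5 libraries a library that stood apart from the other 4 was searched for. The groups covered 13 genes (hba1, hbb1, hba4, alas2 and the other tested neighbours) and 3 TPM ratios (hba1 to hbb1, hba1 to hba4, and the pair's share of the stretch). Such a library was found in 4 of the 64 groups, close to the share of about 1 in 20 groups that chance gives. No group of hba1 or hbb1 was among those 4. In Commercial at 20 dph, replicate 4 held 63.3 CPM of LOC110538444, against 13.5 to 24.1 CPM in the others of its group, and 203.1 CPM of LOC110538450, against 64.6 to 98.8 CPM. In Select at 65 dph, replicate 3 held 58.3 CPM of LOC110538445, against 93.0 to 106.9 CPM, and 59.9 CPM of LOC110538448, against 84.6 to 93.6 CPM. The same Select library held the lowest hba1 (57.6 CPM) and hbb1 (19.8 CPM) of its group.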

How the results depend on the processing

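The age differences of hba1 and hbb1 kept their sign under every alternative run. Without 1 library at a time, hba1 differed by 4.09 to 4.72 in Commercial and 4.50 to 5.36 in Select (log2), and by 5.69 in Select on log2(TPM + 0.1). For hbb1 the ranges were 2.50 to 3.05 and 2.62 to 3.19. The strain differences were never called: without 1 library they ran, at 20 and 65 dph, from -0.91 to 0.11 and 0.01 to 0.25 for hba1, and from -0.51 to 0.16 and -0.19 to 0.06 for hbb1. The difference between age effects ran from 0.02 to 1.04 for hba1 and from -0.21 to 0.46 for hbb1, which was -0.01 in limma-voom and -0.02 without Select 20 dph replicate 1. The log2 ratio of hba1 to hbb1 between strains ran from -0.58 to 0.09 at 20 dph and 0.11 to 0.29 at 65 dph, and r from 0.751 to 0.945 and 0.601 to 0.795; without the 2 farthest libraries r at 65 dph was 0.673. On log2(TPM + 0.1), hba4 differed by 0.23 in Select and alas2 by 0.06 in Commercial and 0.43 in Select, against the main sign; alas2 in Select was 0.01 without Select 20 dph replicate 1. Without 1 library the age differences of hba4 ran from -0.71 to -0.42 and -0.67 to -0.20, and of alas2 from -0.59 to -0.09 and -0.42 to 0.01.

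Features called between strains at 20 dph (51) were 442 in DESeq2, 29 in limma-voom, 31 with no filter, 80 on log2(TPM + 0.1) and 5 to 71 without 1 library. At 65 dph (0) they were 121 in DESeq2, 1 with only the groups compared, 53 without Commercial replicate 2 and Select replicate 5, and 0 to 125 without 1 library. The difference between age effects (0) gave 66 in DESeq2, 2 without that pair and 0 to 2 without 1 library. Features called between ages ran from 8326 to 10049 in Commercial and 9737 to 11496 in Select. Calls over all comparisons in the other globin list (0) were 1 in limma-voom and 1 without that pair of libraries. In the oxygen list (3) they were 5 in DESeq2, 6 in limma-voom, 1 with no filter and 2 without Select 20 dph replicate 1. The causes were not tested. Of the called members of 8 lists (liver, pancreas and muscle were not run), 17 in Commercial and 26 in Select, 0 changed direction under RLE, DESeq2 or TPM.

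Same-numbered replicates were not paired by the labels, and their deviations correlated at -0.09 to 0.106 over 30 pairs (median 0.0105). With the replicate block 20 features were called between strains at 20 dph, and no call of hba1 or hbb1 changed; between ages in Select the adjusted p with the block was 0.0605 for lyve1b, 0.0501 for plek, 0.14 for tfa and 0.622 for hpxb, and no other called member of those 8 lists had one above 0.05.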
